A study of Mus musculus with 90 samples.

Results

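The insulin-like growth factor genes and the genes of their binding proteins were followed across 15 tissues of female mice in estrus and in diestrus. The rows of the 10 members were found by Entrez Gene identifier, and all 10 are among the 20414 genes of the deposited expression table. They are the ligands Igf1 (Entrez Gene 16000) and Igf2 (16002), the receptors Igf1r (16001) and Igf2r (16004), and the binding protein genes Igfbp1 (16006), Igfbp2 (16008), Igfbp3 (16009), Igfbp4 (16010), Igfbp5 (16011) and Igfbp6 (16012). The mice were wild-type females, C57BL/6 and 10 weeks old according to the labels, with no treatment and no altered allele, and their phase was read from the cells in vaginal secretions stained with methylene blue. The study's methods name the J substrain and a younger age, and the sources do not resolve the difference in age. Every tissue has 6 libraries, 3 per phase, which makes 90 in all. The study took the tissues from 3 mice per phase, but the labels do not say which libraries share a mouse, and in samples of whole tissue fewer cells of a type and less RNA per cell cannot be told apart. White and brown fat are written WAT and BAT, and the labels do not say which white fat depot or which vein was taken.

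Insulin-like growth factors are small secreted proteins related to insulin. Igf1, made in liver and other organs under the control of growth hormone, signals through the receptor tyrosine kinase encoded by Igf1r, whereas the Igf2 receptor takes Igf2 up for breakdown in lysosomes. The binding proteins hold nearly all of the circulating factors, lengthen their life in blood and limit or deliver them to the receptors, and in uterus Igf1 is known as a mediator of the growth response to estrogen. Igf2 and Igf2r are imprinted genes, and the liver of mice makes Igf2 before birth and turns it down afterwards.

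Levels are given as FPKM, read fragments divided by transcript length and by the total of mapped fragments, so that genes of different length can be set side by side. The deposited table holds no counts, so the number of reads was approximated from the FPKM. This covers mapped reads only, and it is below the number of sequenced reads that the study states per sample. From the smallest steps between the values of short genes, 89 libraries came to approximately 8320000 to 16800000 reads with a median of 14800000, and BAT estrus replicate 3 to approximately 73300. In that library 12048 genes are listed at 0, Igf1r and Igfbp6 among them, against 2404 to 4820 genes in the other libraries. The labelled tissues were checked by marker genes, and for 13 of 14 lists the labelled tissue had the highest summed level. The exception was the list for uterine epithelium, which was higher in stomach and duodenum, and markers of brown fat were also high in aorta. Some libraries stood apart from the others of their tissue. In uterus, estrus replicate 3 had a summed level of 2173 FPKM for 4 markers of squamous epithelium and 2801 FPKM for 3 markers of oviduct, against 0.35 to 67.5 and 58.7 to 186 FPKM in the other 5 libraries. In WAT, aorta and stomach, estrus replicate 1 had by far the highest level of 5 smooth muscle markers, with 1720 FPKM against 76.4 to 168 in WAT, 11168 against 1169 to 1817 in aorta and 5289 against 238 to 1725 in stomach. The same was seen in duodenum, with 1958 FPKM in estrus replicate 1 against 192 to 535. In uterus, estrus replicate 1 had 160 FPKM of 5 leukocyte markers against 20.6 to 27.3.

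The promoters of the 4 members that were higher in liver than in the other tissues are shown first. RefSeq gives 14 starts for the 10 members, and the 250 bases before each were read from GRCm38.p6, 5′ to 3′ on the strand of the gene. For Igfbp2 only the first start is shown. Capitals mark matches, on either strand, to CAAAACAA (the core of the insulin response element), the letters of the TATA box, TATAAA, those of the CCAAT box, which read ATTGG where the match is on the opposite strand, and the GC box, GGGCGG. The first promoter lies at chr11:7197537-7197786 on the plus strand, the second at chr10:87860861-87861110 (plus), the third at chr1:72824230-72824479 (plus) and the fourth at chr11:99040994-99041243 (plus).
Igfbp1: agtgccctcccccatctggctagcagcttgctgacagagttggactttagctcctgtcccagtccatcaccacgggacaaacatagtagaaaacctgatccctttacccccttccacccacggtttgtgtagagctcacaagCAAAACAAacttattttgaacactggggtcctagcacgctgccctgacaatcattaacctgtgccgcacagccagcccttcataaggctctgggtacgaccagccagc
Igf1: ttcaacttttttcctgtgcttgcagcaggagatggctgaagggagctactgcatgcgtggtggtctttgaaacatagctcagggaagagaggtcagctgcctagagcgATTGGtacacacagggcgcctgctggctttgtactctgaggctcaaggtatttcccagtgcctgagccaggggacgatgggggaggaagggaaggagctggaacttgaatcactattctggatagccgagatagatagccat
Igfbp2: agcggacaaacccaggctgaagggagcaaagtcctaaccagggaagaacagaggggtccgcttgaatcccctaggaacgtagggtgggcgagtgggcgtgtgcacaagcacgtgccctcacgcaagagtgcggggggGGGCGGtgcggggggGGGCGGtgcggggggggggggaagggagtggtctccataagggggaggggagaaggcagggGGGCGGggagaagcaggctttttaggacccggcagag
Igfbp4: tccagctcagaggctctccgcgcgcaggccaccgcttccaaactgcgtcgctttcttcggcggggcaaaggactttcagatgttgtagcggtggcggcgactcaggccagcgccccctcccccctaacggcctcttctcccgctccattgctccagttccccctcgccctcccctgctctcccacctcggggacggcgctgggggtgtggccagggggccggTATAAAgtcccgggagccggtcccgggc

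Igfbp1 was the only one of the 14 promoters of the members with CAAAACAA, at 108 to 101 bases before the start, a match that 2.21% of all 32851 promoters of the same length hold. The promoter of Igfbp2 shown had 3 GC boxes, which 32.7% of all promoters hold at least once. Another promoter of Igfbp2, at chr1:72825137-72825386, had none. Igfbp4 had a TATAAA at 28 to 23 bases before the start, which 12.4% hold. The promoter of Igf1 had neither a GC box nor a TATAAA, and 1 CCAAT, which 33.8% hold. No member had a match to the STAT5 site TTCNNNGAA, held by 7.02%, in this window. These matches describe the sequence and are not sites of binding.

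Each member had its own order of tissues, shown in the plot of mean levels by gene and tissue. Of the 14 steps between neighbouring tissues in the order of each member, 140 steps in all, 11 (7.86%) had ranges of 6 libraries that did not overlap, against 10.4% of such steps over the 17289 genes that reached a mean of 1 FPKM in any tissue. Neighbours in an order are the tissues closest by mean, and overlap of ranges is no test of their means. Steps between tissues at 0, as for Igfbp1 between aorta and vein, could only count as overlap. The highest tissue was apart from the next for Igf1, Igfbp2 and Igfbp4, 3 of 10 members, and for 37.2% of all genes.

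**Figure D1:**
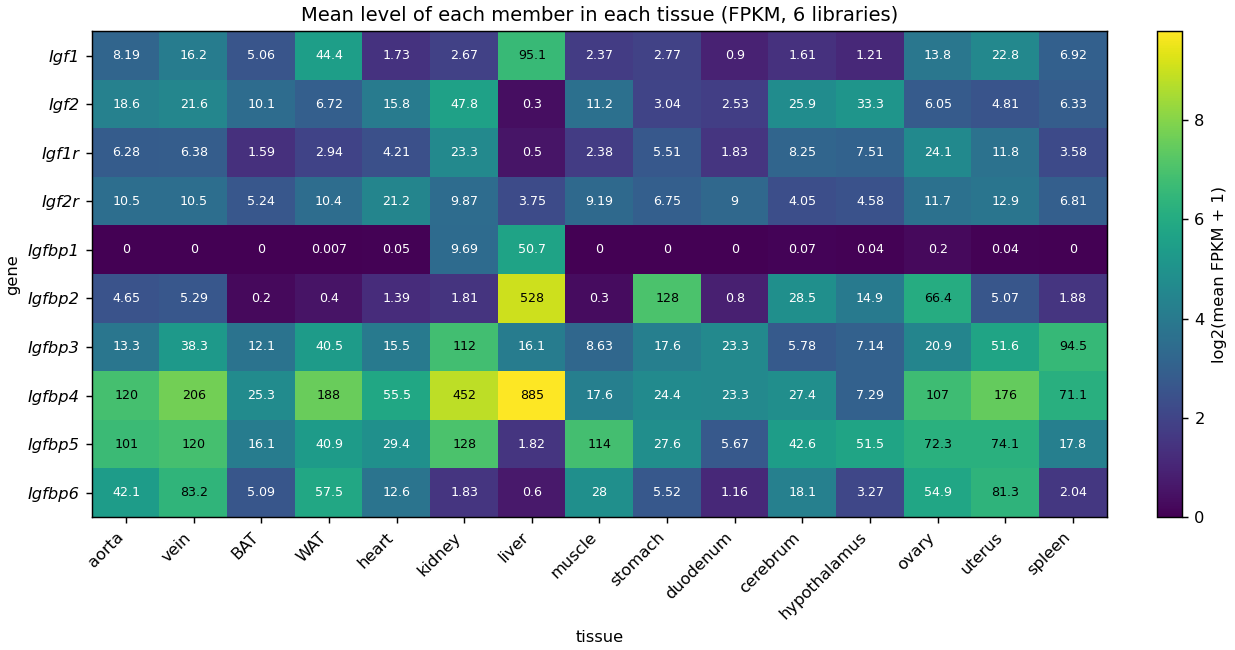
Mean FPKM of the 10 members (rows) in the 15 tissues (columns), each over 6 libraries (3 estrus, 3 diestrus); color gives log2(mean FPKM + 1) and the number in each cell is the mean. Igf1, Igfbp1, Igfbp2 and Igfbp4 had their highest mean in liver, with 95.1, 50.7, 528 and 885 FPKM, where Igf2, Igf1r, Igf2r, Igfbp5 and Igfbp6 had their lowest.

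Of the ligands, Igf1 was highest in liver. Its 6 liver values were 102.67, 83.04 and 86.81 FPKM in estrus and 92.18, 102.3 and 103.61 FPKM in diestrus. WAT followed with a mean of 44.4 ± 4.66 FPKM (SD, n = 6) and uterus with 22.8 ± 15.8 FPKM (SD, n = 6), and their ranges of 40.39 to 51.87 and 7.33 to 46.14 FPKM overlapped. Vein (16.2 FPKM) and ovary (13.8 FPKM) came next, and the lowest mean was that of duodenum, 0.895 FPKM.

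Igf2, the growth factor best known from fetal life, had another order. Kidney was highest with a mean of 47.8 ± 6.31 FPKM (SD, n = 6), followed by hypothalamus with 33.3 FPKM, cerebrum with 25.9 FPKM, vein with 21.6 FPKM and aorta with 18.6 FPKM, and each of these ranges overlapped that of the next tissue. In liver, Igf2 lay between 0.11 and 0.64 FPKM in the 6 libraries, below every value of the next tissue, duodenum, where the lowest library had 1.65 FPKM. Within hypothalamus the values of Igf2 were 57.64, 25.34 and 21.55 FPKM in estrus and 10.75, 42.35 and 42.38 FPKM in diestrus. The library highest in Igf2 there was also the highest in Igfbp2 (28.12 FPKM) and in the summed level of 4 markers of leptomeninges (24.5 FPKM), and diestrus replicate 1 was the lowest in all 3, with 4.81 FPKM for Igfbp2 and 4.90 FPKM for the markers. The part of those cells in the level of Igf2 was not tested. Across the 15 tissue means of log2(FPKM + 1), Pearson's r between Igf1 and Igf2 was -0.51, the lowest among the pairs of members, and that between Igf1 and Igfbp4 was 0.77, the highest. These values describe 15 points and share all libraries.

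Of the receptors, Igf1r was highest in ovary and kidney. The means were 24.1 ± 2.36 and 23.3 ± 1.08 FPKM (SD, n = 6), and the ranges of 21.53 to 28.47 and 21.71 to 24.99 FPKM overlapped. Uterus followed with 11.8 FPKM, below every value in kidney, and liver was lowest with 0.35 to 0.58 FPKM. Igf2r was highest in heart, with 21.2 ± 2.46 FPKM (SD, n = 6), then in uterus with 12.9 FPKM and ovary with 11.7 FPKM. It varied less across tissues than any other member by the ratio of the highest to the lowest tissue mean, since its lowest tissue, liver, had 3.75 FPKM. The kit named for the libraries does not mark the strand, so reads of antisense transcripts over Igf2 or Igf2r cannot be told apart from those of the genes.

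The binding protein genes differed in which tissues carried them. Igfbp1, whose transcription in liver is known to be suppressed by insulin, was in liver and kidney almost alone. Its means were 50.7 FPKM in liver and 9.69 FPKM in kidney, with overlapping ranges of 3.66 to 129.3 and 4.13 to 16.05 FPKM, while no library of any other tissue exceeded 0.29 FPKM, the highest value in ovary. Igfbp2 had 528 ± 64.4 FPKM (SD, n = 6) in liver, 128 FPKM in stomach, 66.4 FPKM in ovary and 28.5 FPKM in cerebrum, and at most 14.95 FPKM in the other tissues by mean. Igfbp3, the main carrier in blood together with the product of Igfals, was highest in kidney (112 FPKM) and spleen (94.5 FPKM), then in uterus (51.6 FPKM) and WAT (40.5 FPKM).

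Igfbp4, which inhibits the factors until it is cleaved, was the most abundant member. It reached 885 ± 124 FPKM (SD, n = 6) in liver and 452 FPKM in kidney, and 206, 188 and 176 FPKM in vein, WAT and uterus. Igfbp5 had its highest means in kidney (128 FPKM), vein (120 FPKM), muscle (114 FPKM) and aorta (101 FPKM), with ranges that overlapped, and its lowest in liver (1.82 FPKM). Igfbp6, which prefers Igf2 as its ligand, was highest in vein (83.2 FPKM), uterus (81.3 FPKM), WAT (57.5 FPKM) and ovary (54.9 FPKM), and ranged from 0.14 to 1.17 FPKM in liver.

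The summed level of the 6 binding protein genes was 1482 FPKM in liver, 704 FPKM in kidney, 453 FPKM in vein and 388 FPKM in uterus, down to 54.3 FPKM in duodenum. Igfbp4 had the largest share of the sum in 10 tissues. In liver its share was 59.7%, with 51.7% to 69.1% in single libraries, and in uterus 45.4%, with 18.3% to 58.8%. Igfbp5 led in muscle (67.7%), hypothalamus (61.2%) and cerebrum (34.8%), Igfbp2 in stomach (62.9%) and Igfbp3 in spleen (50.4%). The plot of summed levels and shares shows that tissues of similar sums had different makeups, such as stomach with 203 FPKM and spleen with 187 FPKM.

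**Figure D2:**
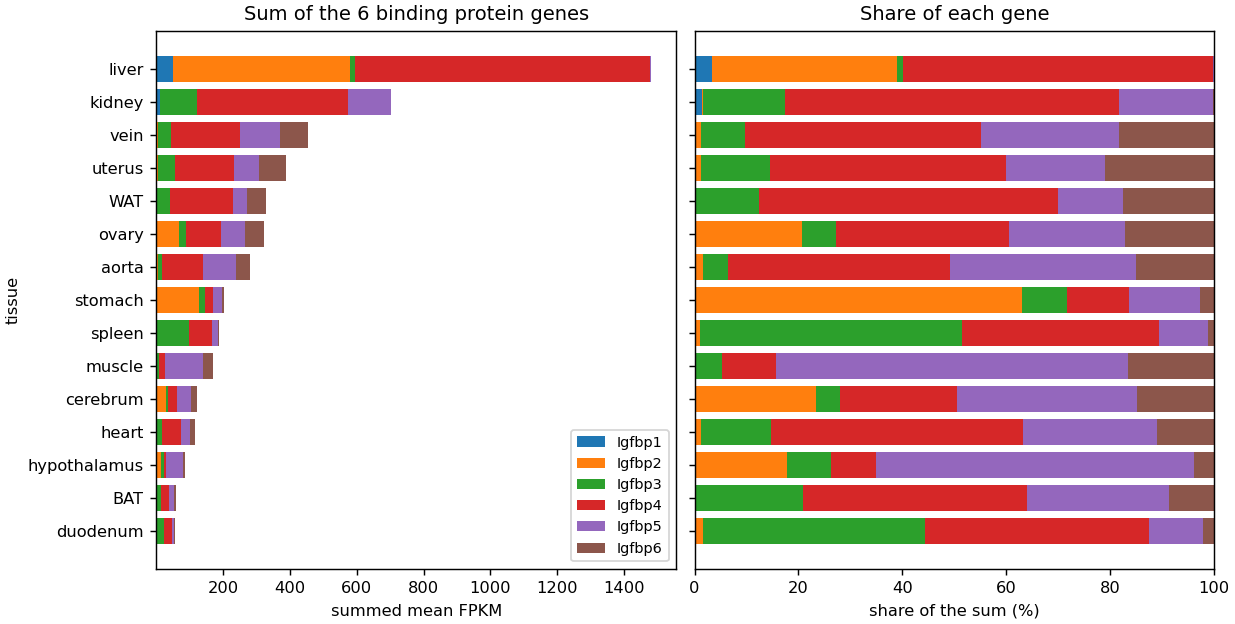
Left, stacked mean FPKM (6 libraries per tissue) of the 6 binding protein genes by tissue, ordered by their sum; right, the same as a share of the sum in percent. Liver had the highest sum, 1482 FPKM, nearly all of it from Igfbp4 and Igfbp2, whereas Igfbp5 took 67.7% in muscle and Igfbp3 50.4% in spleen.

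The genes whose levels across the 15 tissues were most like those of a member were taken among 17289 genes. Taken for each member were the 2 with the highest Pearson's r of the tissue means of log2(FPKM + 1). They were Slc22a26 and C8a for Igfbp1 (r = 0.999 for both), Tmem107 and Itgav for Igf1r (0.94 for both) and Cyba and Zmynd15 for Igfbp3 (0.92 and 0.91). For Igf2 they were Rab7 and Slc30a9 (0.90 and 0.88), for Igf1 Mmp19 and Psen2 (0.88 for both) and for Igf2r Ehd4 and Smim8 (0.88 and 0.87). Cp and Inmt were nearest to Igfbp4 (0.87 and 0.85) and Shroom1 and Slc19a2 to Igfbp2 (0.87 and 0.86). For Igfbp6, Col5a1 was one of the 2 (0.92), and for Igfbp5, Tbc1d19 (0.86). The highest of 17289 values of r over 15 points are high by selection. That of Igfbp1 rests on liver and kidney, since no library of another tissue exceeded 0.29 FPKM.

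Liver was compared with the other 14 tissues in a single limma fit of all 90 libraries on log2(FPKM + 1), with Benjamini-Hochberg adjustment over 17289 genes. Differences are on this log2 scale, on which low genes move less than their FPKM do, and calls required both an adjusted p no higher than 0.05 and a difference of 1 or more, up or down. Of the 10 members, 9 were called, 4 of them higher and 5 lower, where 39.2% of all genes were called, 7.51% higher and 31.7% lower. The median of all genes was -0.68 and that of the members -0.70. The fit treats libraries of different tissues as independent, although they came from the same few mice.

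The members higher in liver were Igfbp2, with a difference of 6.64 (SE 0.27, adjusted p = 2.51e-32), Igfbp1 with 4.77 (SE 0.19, adjusted p = 1.21e-32), Igf1 with 3.96 (SE 0.14, adjusted p = 5.71e-37) and Igfbp4 with 3.88 (SE 0.16, adjusted p = 2.61e-32). The members lower in liver were Igfbp5 with -3.98 (SE 0.20), Igf2 with -3.17 (SE 0.19), Igfbp6 with -3.08 (SE 0.31), Igf1r with -2.18 (SE 0.14) and Igf2r with -1.02 (SE 0.12), each with an adjusted p of at most 2.87e-12. Igfbp3 was not called, at -0.38 (SE 0.22, adjusted p = 0.0957 from limma). With libraries scaled by median ratios the median of all genes moved from -0.68 to -0.24, the 4 members stayed higher and 4 of the 5 stayed lower, while Igf2r (-0.34) was no longer called and Igfbp3 changed sign to 0.40. Igf2r also fell short of the limit without the libraries numbered 1 (-0.96).

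**Figure D3:**
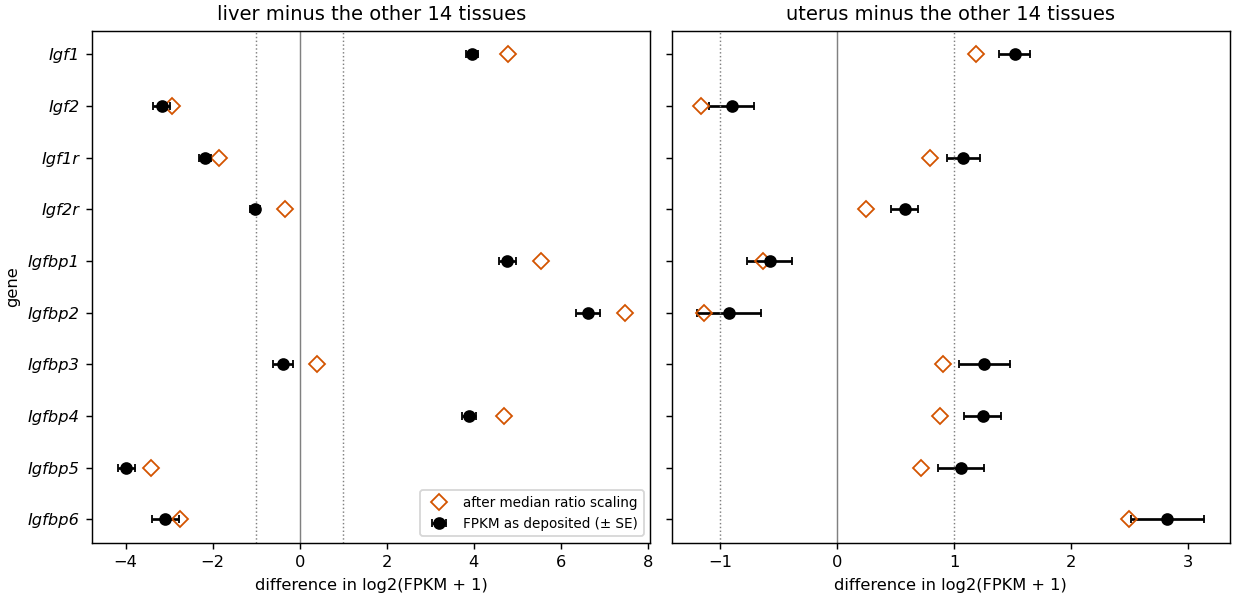
Difference in log2(FPKM + 1) of each member in liver (left) and uterus (right) from the mean of the other 14 tissues, from one limma fit of 90 libraries; black points with SE are FPKM as deposited, open diamonds are after median ratio scaling, and dotted lines mark a difference of 1 either way. In liver 4 members lie above 3.8 under both scales, and in uterus Igf1 and Igfbp6 stay above 1 under both.

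The genes around the family in liver were read from a list of 40 genes of the pathway, of which 39 are in the table and 34 were tested. In liver 3 were called higher and 9 lower. Of the growth hormone axis, Ghr, the growth hormone receptor, was higher (2.53, SE 0.13) and Jak2, the kinase bound to it, was lower (-1.91, SE 0.12), and the other 7 tested genes were not called. Ghr had 161 to 203 FPKM in the 6 liver libraries, although WAT had the highest mean of the 15 tissues, 451 FPKM. Igfals, which encodes the acid-labile subunit of the circulating complex, was higher in liver by 4.54 (SE 0.19), with 70.1 to 109 FPKM. Of the proteases that cleave binding proteins and the inhibitors of these proteases, the protease Htra1 (-4.24, SE 0.18) and the inhibitors Stc2 (-1.91, SE 0.15) and Stc1 (-1.55, SE 0.22) were lower, and Pappa was not called. Among 15 adaptors and kinases the inhibitory adaptor Grb14 was higher (1.01, SE 0.14) and Grb10 (-2.74, SE 0.14), Akt1 (-1.13, SE 0.10) and Pik3ca (-1.06, SE 0.09) were lower, but with scaled libraries Akt1 and Pik3ca were at -0.33 and -0.36 and were not called. The same held for Igf2bp2 (-1.20, and -0.83 with scaled libraries), an RNA-binding protein of Igf2 messenger RNA, and for Igfbp7 (-1.13 and -0.32), and 8 of 34 genes were called with scaled libraries.

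In uterus, 6 of the 10 members were called higher than in the other 14 tissues and none lower in the same fit, where 21.1% of all genes were called, 15.4% higher and 5.67% lower. The largest difference was that of Igfbp6, 2.82 (SE 0.31, adjusted p = 3.75e-12 from limma), and Igf1 followed with 1.51 (SE 0.14, adjusted p = 1.04e-15). Igfbp3 (1.26, SE 0.22), Igfbp4 (1.24, SE 0.16), Igf1r (1.08, SE 0.14) and Igfbp5 (1.06, SE 0.20) were also called. Igf2r was at 0.58 (SE 0.12), Igfbp1 at -0.58 (SE 0.19), Igf2 at -0.90 (SE 0.19) and Igfbp2 at -0.93 (SE 0.27), none of which reached the limit of 1.

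These calls in uterus depended on the scale of the libraries. With scaled libraries, which moved the median of all genes from 0.24 to -0.02, Igf1 (1.18) and Igfbp6 (2.50) stayed higher, Igfbp3 (0.90), Igfbp4 (0.88), Igf1r (0.79) and Igfbp5 (0.71) were no longer called, and Igf2 (-1.17) and Igfbp2 (-1.14) were called lower. Over all genes the split went from 2671 higher and 981 lower to 1686 higher and 1432 lower. Without uterus estrus replicate 3 alone, Igf1r was at 0.96 and lost its call, while Igf2 (-1.05) and Igfbp2 (-1.32) gained one, and without uterus estrus replicate 1 Igfbp5 was at 0.92 and lost its call. Without the 6 libraries of BAT both Igf1r and Igfbp5 were at 0.98 and lost their calls, and Igfbp2 was called at -1.13. The connective tissue of uterus varied strongly between libraries, since estrus replicate 1 and diestrus replicate 3 had 2661 and 2266 FPKM of 6 fibroblast markers against 449 to 1184 FPKM in the other 4, and these were also the highest libraries for Igfbp6, at 164.1 and 127.98 FPKM. The other 4 libraries had 30.16 to 64.78 FPKM of Igfbp6. The part of fibroblasts in the level of Igfbp6 was not tested.

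Of the pathway list in uterus, 7 of 34 tested genes were called higher and 5 lower. Jak2 was higher by 2.43 (SE 0.12), with the highest mean of all tissues, 72.3 FPKM, and Ghr was lower by -1.77 (SE 0.13), with 7.07 to 16.3 FPKM. Gh, which is also on the list of pituitary markers, was called lower (-1.06, SE 0.43). Its mean was 1581 FPKM in hypothalamus and 28.2 FPKM in cerebrum, against 0.035 FPKM in uterus and 0.095 FPKM in liver. In liver Gh was at -0.98 and was not called. Whether the hypothalamus samples held pituitary tissue was not tested. Igfals was lower by -1.94 (SE 0.19), with 0.09 to 0.56 FPKM. Stc2 (2.32, SE 0.15) and Stc1 (1.96, SE 0.22), both inhibitors of the proteases encoded by Pappa and Pappa2, were higher. Of the adaptors, the receptor substrate Irs1 was higher by 1.58 (SE 0.16) and Grb14 and the substrate Irs2 were lower by -1.96 (SE 0.14) and -1.76 (SE 0.22). Igf2bp2 was higher by 2.64 (SE 0.10), with the highest mean of all tissues, 18.8 FPKM. With scaled libraries 6 of the 34 were called higher and 7 lower.

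Liver and uterus set directly against each other differed in all 10 members, where 52.7% of all genes were called, 7.87% higher in liver and 44.8% lower. Igfbp2 (7.06, SE 0.37), Igfbp1 (4.99, SE 0.27), Igfbp4 (2.46, SE 0.22) and Igf1 (2.29, SE 0.18) were higher in liver. Igfbp6 (-5.51, SE 0.43), Igfbp5 (-4.70, SE 0.27), Igf1r (-3.04, SE 0.19), Igf2 (-2.12, SE 0.26), Igfbp3 (-1.53, SE 0.30) and Igf2r (-1.49, SE 0.16) were lower in liver. With scaled libraries Igf2r was at -0.54 and Igfbp3 at -0.47, and these 2 were no longer called. Of the 34 tested genes of the pathway list 3 were higher in liver, namely Igfals (6.05, SE 0.26), Ghr (4.01, SE 0.18) and Grb14 (2.77, SE 0.20). Among the 15 lower in liver were Jak2 (-4.06), the transcription factor Stat5a (-1.73), Stc2 (-3.95), Htra1 (-3.67), Stc1 (-3.28), Grb10 (-3.90), Irs1 (-2.04), Igf2bp2 (-3.59) and Igfbp7 (-1.60). With scaled libraries 7 were higher in liver and 8 lower, and Stat5a (-0.77) and Igfbp7 (-0.50) were no longer called.

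Estrus and diestrus were then compared within each tissue, by limma on the 6 libraries of that tissue, for genes whose mean there reached 1 FPKM. Of the 150 pairs of a member and a tissue 129 were tested, since 21 had a lower mean, Igfbp1 in 13 tissues among them. None of the 129 was called, where 2 of 185469 pairs of a gene and a tissue were called over all genes (0.00108%). The lowest adjusted p of a member was 0.162, that of Igfbp4 in muscle. At an unadjusted p under 0.05 there were 18 of 129 pairs of members (14%), against 7.84% of all pairs. The 3 values of one phase did not overlap the 3 of the other in 15 of the 129 pairs (11.6%), against 15% of all pairs. Of the pathway list, 0 of 400 pairs were called, 54 had an unadjusted p under 0.05 and 66 (16.5%) did not overlap. With 3 libraries against 3, the smallest p of an exact permutation test of one gene is 0.1.

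**Figure D4:**
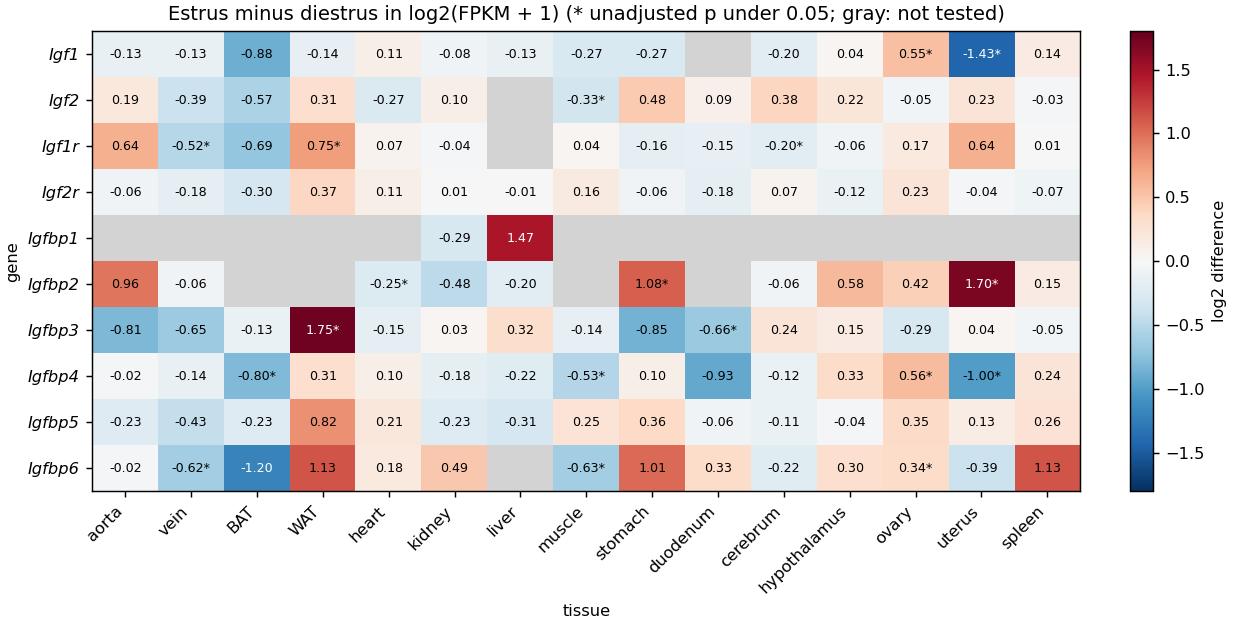
Difference in log2(FPKM + 1) between estrus and diestrus (positive where estrus is higher) for each member (rows) and tissue (columns), from limma on 6 libraries per tissue; asterisks mark an unadjusted p under 0.05 and gray cells had a mean under 1 FPKM. None passed after adjustment, and the lowest value was -1.43 for Igf1 in uterus and the highest 1.75 for Igfbp3 in WAT.

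In uterus, 2 of the 3 estrus values of Igf1 lay below every diestrus value. The values were 9.78, 17.99 and 7.33 FPKM in estrus and 38.37, 17.12 and 46.14 FPKM in diestrus. Diestrus replicate 2 lay with the estrus libraries, so that the phases overlapped. The difference was -1.43 (SE 0.46, adjusted p = 0.897 from limma), and it lay between -1.85 and -1.16 with 1 library left out. Of 5 markers of endometrial stroma 2 were lower in estrus without overlap, and their summed level was 319 to 1250 FPKM in estrus and 493 to 919 FPKM in diestrus. Their part in the values of Igf1 was not tested.

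Igfbp4 in uterus had 81.59, 162.66 and 103.61 FPKM in estrus and 237.77, 144.08 and 328.38 FPKM in diestrus. Diestrus replicates 3 and 1 were the highest for both genes. The difference of Igfbp4 was -1.0 (SE 0.39, adjusted p = 0.897 from limma). The libraries with the most smooth muscle markers, estrus replicate 1 with 3690 FPKM and diestrus replicate 3 with 2641 FPKM, were the lowest and the highest for Igfbp4, and in the other 4 the markers came to 659 to 1264 FPKM. The part of smooth muscle in these values was not tested.

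Igfbp2 in uterus was higher in estrus without overlap, with 3.46, 2.75 and 20.44 FPKM against 2.01, 0.76 and 0.98 FPKM in diestrus (difference 1.7, SE 0.68, adjusted p = 0.897 from limma). It was the only member of the 9 tested in uterus without overlap, where 7.91% of all genes had none. The highest value is from estrus replicate 3, the library with the markers of squamous epithelium and oviduct, and without it the difference was 0.90. Igf1r in uterus had 16.21, 8.59 and 19.54 FPKM in estrus and 7.22, 9.29 and 9.69 FPKM in diestrus. Estrus replicates 1 and 3 lay above every diestrus value, but the phases overlapped (difference 0.64, SE 0.33, adjusted p = 0.897 from limma). The remaining members tested in uterus also overlapped, with differences of -0.39 for Igfbp6, 0.23 for Igf2, 0.13 for Igfbp5, 0.04 for Igfbp3 and -0.04 for Igf2r.

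With one fit of all 90 libraries, in which the phases of every tissue share 1 estimate of the spread, Igf1, Igfbp4 and Igfbp2 were called in uterus. The adjusted p from limma was 6.78e-05 for Igf1 (SE 0.26), 0.0224 for Igfbp4 (SE 0.31) and 0.0238 for Igfbp2 (SE 0.53). Over all genes 5.25% were called in uterus and 1.14% over the 15 tissues. The libraries of uterus alone gave larger SE for these members, 0.46, 0.39 and 0.68. The shared spread thus understates theirs in uterus, and these p-values are likely too low. No member was called in another tissue, but some came near. Igf1 in BAT (-0.88, adjusted p = 0.0141 from limma) and Igfbp4 in duodenum (-0.93, adjusted p = 0.0390) missed only the limit of 1. With the libraries of each tissue alone their adjusted p from limma was 0.403 and 0.381. The lowest Igf1 value in BAT, 1.94 FPKM, is from estrus replicate 3, the library of low depth. The lowest Igfbp4 value in duodenum, 7.18 FPKM, is from estrus replicate 2. Igfbp3 in WAT (1.75, adjusted p = 0.0506) missed only the limit of 0.05. The median coefficient of variation over genes was 33.3% in uterus, the highest of the 15 tissues, and 11.3% in liver.

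**Figure D5:**
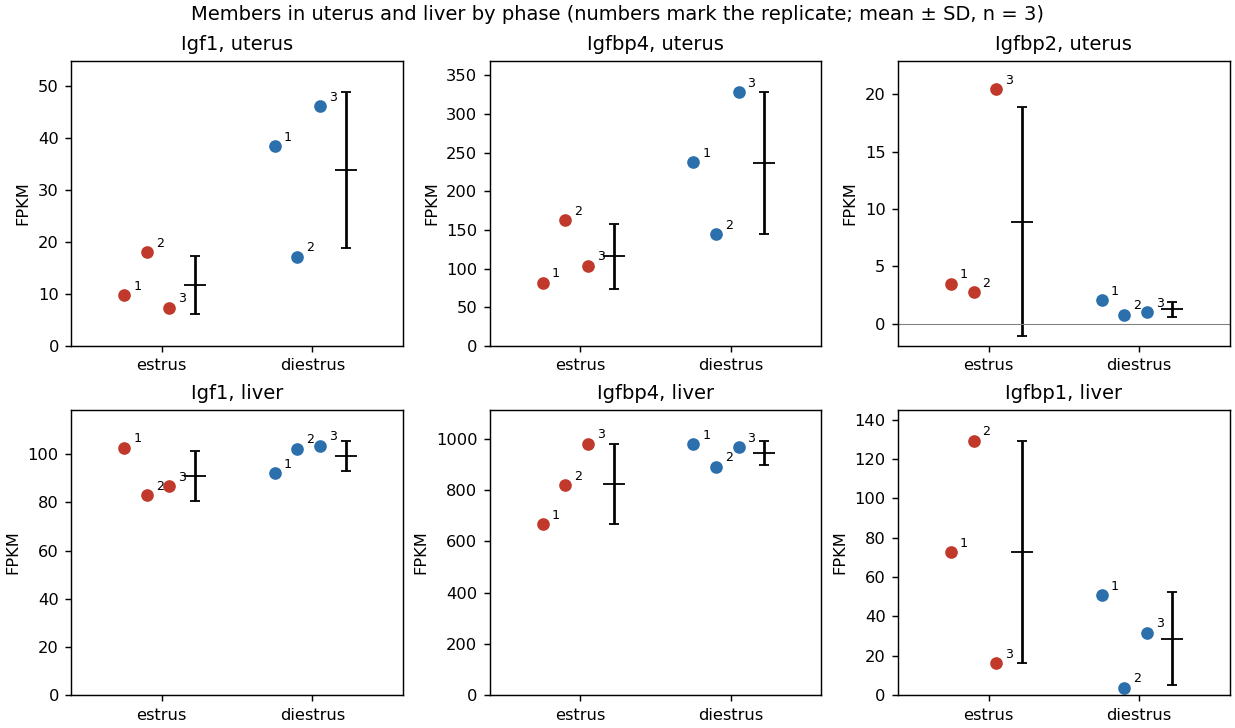
FPKM of single libraries in uterus (top: Igf1, Igfbp4, Igfbp2) and liver (bottom: Igf1, Igfbp4, Igfbp1) in estrus (red) and diestrus (blue); numbers mark the replicate, and black bars the mean ± SD (n = 3). In uterus diestrus replicate 2 lies among the estrus values for Igf1 and Igfbp4, and in liver Igfbp1 spans 3.66 to 129.3 FPKM while Igf1 spans 83.04 to 103.61.

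In liver, 7 members were tested and none had phases without overlap, where 11.3% of all genes did. Igf1 was steady, with a difference of -0.13 and a coefficient of variation of 9.45% over the 6 libraries. Igfbp1 was not, with 72.61, 129.3 and 16.28 FPKM in estrus and 50.65, 3.66 and 31.66 FPKM in diestrus. Its difference of 1.47 (SE 1.05) had an unadjusted p of 0.208 and an adjusted p of 0.832 from limma. In the one fit of 90 libraries the adjusted p from limma was 0.114. Leaving out 1 library moved the difference within liver between 0.42 and 2.30. The coefficient of variation of Igfbp1 was 90%, which placed it at rank 50 of 10665 liver genes, whereas the other tested members had 6.36% (Igf2r) to 37.4% (Igfbp5). Irs2, the insulin receptor substrate of the pathway list, was singled out after its values were seen. It had 2.35, 4.22 and 1.75 FPKM in estrus and 2.28, 1.53 and 2.17 FPKM in diestrus, and the order of the 6 libraries was the same as for Igfbp1.

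Among the pathway genes in liver, Stat5b, the transcription factor through which growth hormone acts on Igf1, was higher in estrus without overlap, with 11.87 to 15.02 FPKM against 8.44 to 11.41. Socs2, an inhibitor of growth hormone signalling, was lower without overlap, with 5.44 to 14.32 FPKM against 18.76 to 35.96. Grb14 (29.36 to 34.98 against 20.78 to 26.94 FPKM) and Mtor (5.43 to 7.19 against 4.21 to 5.33 FPKM) were higher without overlap, and Htra1 (0.82 to 0.93 against 1.03 to 1.30 FPKM) and Shc1 (17.58 to 20.49 against 20.67 to 21.09 FPKM) were lower. In uterus the pathway genes that passed the filter without overlap were Grb2 (39.85 to 46.66 against 47.55 to 56.22 FPKM) and Mtor (3.89 to 4.63 against 4.73 to 7.70 FPKM), both lower in estrus. None of these was called. They were 6 of 23 tested pathway genes in liver and 2 of 26 in uterus, where 11.3% and 7.91% of all genes had no overlap.

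Whether the phase difference of a member in uterus differed from that in liver was tested as an interaction in the fit of 90 libraries. Igf1 was called, at -1.30 (SE 0.37, adjusted p = 0.0437 from limma), and the other 9 members were not, where 1.46% of all genes were called. Igfbp2 (1.90, SE 0.75, adjusted p = 0.204), Igfbp1 (-1.43, SE 0.53, adjusted p = 0.168) and Igfbp4 (-0.79, SE 0.44, adjusted p = 0.447) were nearest in p. The call of Igf1 did not hold without uterus estrus replicate 3 (-1.04, adjusted p = 0.243), without uterus estrus replicate 1 (-1.23, adjusted p = 0.0557) or in a fit of the 12 libraries of liver and uterus alone (-1.30, adjusted p = 0.920), where 0 genes were called and 620 had an unadjusted p under 0.05.

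Ovary had 3 members without overlap of the phases among 9 tested, where 13.7% of all genes had none. Igf1 had 16.67, 19.66 and 13.39 FPKM in estrus and 12.21, 9.96 and 10.65 FPKM in diestrus, a difference of 0.55 (SE 0.15, adjusted p = 0.777 from limma). The direction was opposite to that in uterus, and the difference between these tissues was not tested. Igfbp4 (101 to 170 against 75.9 to 95.9 FPKM) and Igf1r (24.1 to 28.5 against 21.5 to 23.3 FPKM) were also higher in estrus there, with differences of 0.56 and 0.17. Beside them, 6 fibroblast markers came to 785 to 1181 FPKM in estrus and 550 to 671 FPKM in diestrus, with 4 of the 6 higher without overlap, and their part in these differences was not tested. Estrus replicate 3 of ovary also had 1639 FPKM of the oviduct markers, against 2.89 to 44.3 in the other 5 libraries.

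In WAT, 2 of 8 tested members had no overlap, where 12% of all genes had none. Igfbp3 had 135.09, 27.59 and 35.25 FPKM in estrus and 18.36, 17.19 and 9.45 FPKM in diestrus, without overlap (difference 1.75, SE 0.57, adjusted p = 0.791 from limma). The highest value is from estrus replicate 1, the library with 1720 FPKM of smooth muscle markers, and without it the difference was 1.06. All 3 estrus libraries of WAT lay above the diestrus ones in summed fibroblast markers, with 569 to 2416 against 426 to 493 FPKM and 3 of 6 markers higher without overlap, and in smooth muscle markers, with 161 to 1720 against 76.4 to 125 FPKM and 3 of 5 higher. Their part in the difference of Igfbp3 was not tested. The same library was the highest in WAT for Igfbp6 (157.54 FPKM, next 60.22) and Igf1r (6.95 FPKM, next 3.02). In aorta, estrus replicate 1 had 40.2 FPKM of Igf2, 16.54 FPKM of Igf1r and 16.2 FPKM of Igfbp2, where the next highest libraries had 17.4, 4.68 and 2.99 FPKM. It also had 407 FPKM of 3 markers of brown fat against 3333 to 6011 FPKM in the other 5. In stomach, estrus replicate 1 had 24.63 FPKM of Igfbp6 against at most 3.31 FPKM in the others.

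Igfbp2 in stomach had 185.73, 99.37 and 239.8 FPKM in estrus and 111.86, 62.2 and 66.46 FPKM in diestrus, overlapping values with a difference of 1.08 (SE 0.39, adjusted p = 0.671 from limma). In BAT, 3 of 8 tested members had no overlap, where 30.1% of all genes had none, and all 3 were lower in estrus. Igfbp4 there had 18.91, 23.47 and 13.03 FPKM against 32.82, 36.16 and 27.69 FPKM, a difference of -0.80, and of -0.58 without estrus replicate 3, the shallow library. In muscle 2 of 8 tested members had no overlap, where 26.2% of all genes had none. Igf2 (8.38 to 11.23 against 11.77 to 13.85 FPKM) and Igfbp4 (11.36 to 15.84 against 17.38 to 26.54 FPKM) were lower in estrus. Fibroblast markers came to 203 to 312 FPKM in estrus and 338 to 420 FPKM in diestrus there, with 3 of 6 lower without overlap, and their part in these values was not tested. The remaining pairs without overlap were Igf1r in WAT (0.75, and 0.37 without estrus replicate 1) and 1 member in each of 4 tissues. They were Igf1r in vein (-0.52), where 18.2% of all genes had no overlap, Igf1r in cerebrum (-0.20), where 7.8% had none, Igfbp2 in heart (-0.25), where 11.7% had none, and Igfbp3 in duodenum (-0.66), where 26.6% had none. The lowest value of Igfbp3 in duodenum, 13.22 FPKM, is from estrus replicate 1, the library high in smooth muscle markers, and without it the difference was -0.47.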

How the data were processed

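The authors prepared RNA of 15 tissues with a kit that does not mark strand (TruSeq RNA Library Prep Kit v2) for BGISEQ-500 sequencing. They cleaned reads with SOAPnuke, aligned them to GRCm38.p5 by Bowtie2 2.2.5, quantified genes by RSEM 1.2.8 and deposited FPKM without counts, so depth is approximate and DEGSeq, which the study used and which needs counts, was not run.

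Groups came from the labels. RefSeq (GRCm38.p6) gave symbols for 20265 of 20414 genes. The members and gene lists were chosen with earlier results of these data known. Values were fitted as log2(FPKM + 1) in limma 3.58.1 (R 4.3.3) with a mean-variance trend and without a block, after removing genes under 1 FPKM on average, and were called at a log2 difference of 1 and an adjusted p of 0.05. All 10 members were named. Pathway genes were named where the phases did not overlap in liver or uterus, and up to 3 called genes per role in each tissue contrast. Grb14 in liver against the other tissues was added after its values were seen. The fits were tested on simulated data. Alternatives changed the pseudocount, filter, scaling, trend, fold limit, block or libraries. Of 4005 pairs of libraries none was identical. For Igfbp5 and Igfbp6, 1 of the 2 genes most alike across tissues is not reported here.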

Additional observations from a re-analysis of the deposited data

Results flagged for a closer look

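With all 90 libraries the phase difference of Igf1 in uterus was called as different from that in liver, by -1.30 on the log2(FPKM + 1) scale (SE 0.37, adjusted p = 0.0437 from limma, an interaction). In uterus 2 of 3 estrus libraries lay below every diestrus library, and in liver the values of the phases overlapped, with a difference of -0.13. The call was lost with a pseudocount of 0.1, in the 12 libraries of liver and uterus alone (adjusted p = 0.920 from limma), without uterus estrus replicate 3 (adjusted p = 0.243) and without uterus estrus replicate 1 (adjusted p = 0.0557), and also without the libraries numbered 1 (-0.94) or 3 (-0.83) in every tissue.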

How the results depend on the processing

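Median ratio scaling moved the median of all genes from -0.68 to -0.24 in liver, from 0.24 to -0.02 in uterus and from -0.85 to -0.18 in liver against uterus, and the calls from 6775 to 4992, 3652 to 3118 and 9108 to 6064. The splits went from 1299 higher and 5476 lower to 2145 and 2847 in liver, and from 1361 and 7747 to 2511 and 3553 in liver against uterus. Igfbp3 in liver changed sign to 0.40. With a pseudocount of 0.1, 5844 genes were called in uterus and 11423 in liver against uterus, and 9934 in liver. One fit of all libraries called 3 members between the phases in place of 0, and 2964 pairs of all genes in place of 2.

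The number of members called in the interaction of phase with uterus and liver was 0 with a pseudocount of 0.1 (149 genes in all), 0 in the 12 libraries of liver and uterus (0 genes), 0 without uterus estrus replicate 1 (615 genes) and 0 without uterus estrus replicate 3 (188 genes). It lay between 0 and 1 without each replicate number in turn, with 248, 1113 and 23 genes, against 253 with all libraries. The interaction of Igfbp1 then lay between -2.60 and 0.18. Without the libraries numbered 3, Igf1r was at 0.89 and Igfbp5 at 0.97 in uterus, Igfbp5 was at 0.89 without those numbered 1, and Igf2 (-1.02) and Igfbp2 (-1.35) were called without those numbered 3. Causes were not tested.

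Libraries share replicate numbers. Deviations of same-numbered estrus and diestrus libraries had a lowest r per tissue of -0.52 to 0.067. As the lowest of 3 values, centered within each group, it cannot show whether numbers were linked. Between tissues, libraries of the same phase and number had a median r of 0.039 over 630 pairs (-0.22 to 0.43). For different numbers the median was -0.020. Estrus replicate 1 was highest in smooth muscle markers in WAT, aorta, stomach and duodenum. Whether these libraries share a mouse was not tested. With a replicate block 0 members were called between the phases, and 9, 6, 10 and 1 in the other comparisons, as without it. The block was phase and number for the contrasts of liver and uterus, and number alone for the phases and the interaction. Number alone joins estrus and diestrus libraries, which came from different mice, so there it does not account for shared mice. Depth limits mainly BAT, through estrus replicate 3.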
